A study of Mus musculus with 36 samples.

Results

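The 9 genes described here are those of glutamine synthesis, glutamate breakdown and transamination, and the first steps of branched-chain amino acid use in skeletal muscle. They were taken by gene symbol from the 46893 features of the count table, and all 9 were found (Glul, Glud1, Bcat2, Bckdha, Bckdhb, Bckdk, Dbt, Got1 and Gpt2). Each had a mean count of at least 25 in every fit, the minimum for being tested. The tissue was gastrocnemius, a mixed calf muscle, from 36 male C57BL/6 mice that were 3 to 4 weeks old at the start, with 6 mice in each of 6 groups and 1 RNA-seq library per mouse. One group ate a normal-fat diet and was sedentary (NFD-C). The other 5 groups ate a high-fat diet for 12 weeks. Of these, HFD-C was sedentary, and the others ran in braked in-cage wheels, HFD-25% for 2.1 km/day, HFD-50% for 4.2, HFD-75% for 6.3 and HFD-U, at the unrestricted distance, for 8.3 km/day. No gene was altered in any group.

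Leucine, isoleucine and valine, the branched-chain amino acids, are broken down largely outside the liver, and muscle is a main site of the first step. BCAT2 moves their amino group to 2-oxoglutarate in mitochondria, which gives glutamate and branched-chain keto acids. The keto acids are then oxidised by the branched-chain keto acid dehydrogenase complex, whose E1 part is made of the products of Bckdha and Bckdhb and whose E2 core is the product of Dbt, while the kinase BCKDK phosphorylates E1 and turns the complex off. The glutamate can pass its nitrogen to pyruvate (GPT2, which makes alanine) or to oxaloacetate (GOT1, which makes aspartate), lose it as ammonia (GLUD1), or take up ammonia to become glutamine (GLUL), and resting muscle is known to release alanine and glutamine. Glul in muscle and the genes of branched-chain amino acid breakdown are known to respond to glucocorticoids and to the factor KLF15.

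The libraries held 13060090 to 27981702 counts each. All 7 markers of muscle fibres were detected, and their summed level ran from 84214 to 163523 CPM (counts scaled to a common library size, here with TMM library factors), while the 3 liver markers summed to at most 2.91 CPM in any library. Libraries differed in how much of their total fell on ribosomal RNA (rRNA) and its look-alike features, here called the rRNA-linked share. It was 2.01 to 3.80% in the 6 NFD-C libraries and above 1.5% in HFD-C mice 1 to 4, but 0.404 to 1.02% in all 24 running mice, with HFD-C mice 5 and 6 in the low range too. Since 4 of the 6 HFD-C libraries and none of the running mice were high, the share and running can be told apart only by 2 HFD-C mice, and fits with the share as a covariate are given beside the calls below (for the gene lists beyond the members, this was chosen after seeing the data). A fall in RNA per cell and a loss of cells of a type cannot be told apart in bulk tissue.

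Per length, Glul was the most abundant member, at 235 ± 88.3 FPKM (CPM divided by the gene length in kilobases, SD, n = 36). Bckdha and Got1 followed at 70.4 ± 14.7 and 70.2 ± 29.7 FPKM, then Gpt2 at 53.2 ± 12.5, Bckdk at 46.2 ± 6.28 and Glud1 at 31.5 ± 4.88. Bcat2 at 15.0 ± 2.27 FPKM, Bckdhb at 12.2 ± 3.75 and Dbt at 8.79 ± 2.34 were the lowest. The mRNA of the kinase thus stood between those of the E1 alpha and E1 beta subunits. Across mice, Got1 spanned 4.81-fold, Glul 4.46-fold and Bckdhb 4.22-fold from the lowest to the highest mouse, whereas Bcat2 spanned 1.79-fold and Glud1 1.99-fold.

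**Figure D1:**
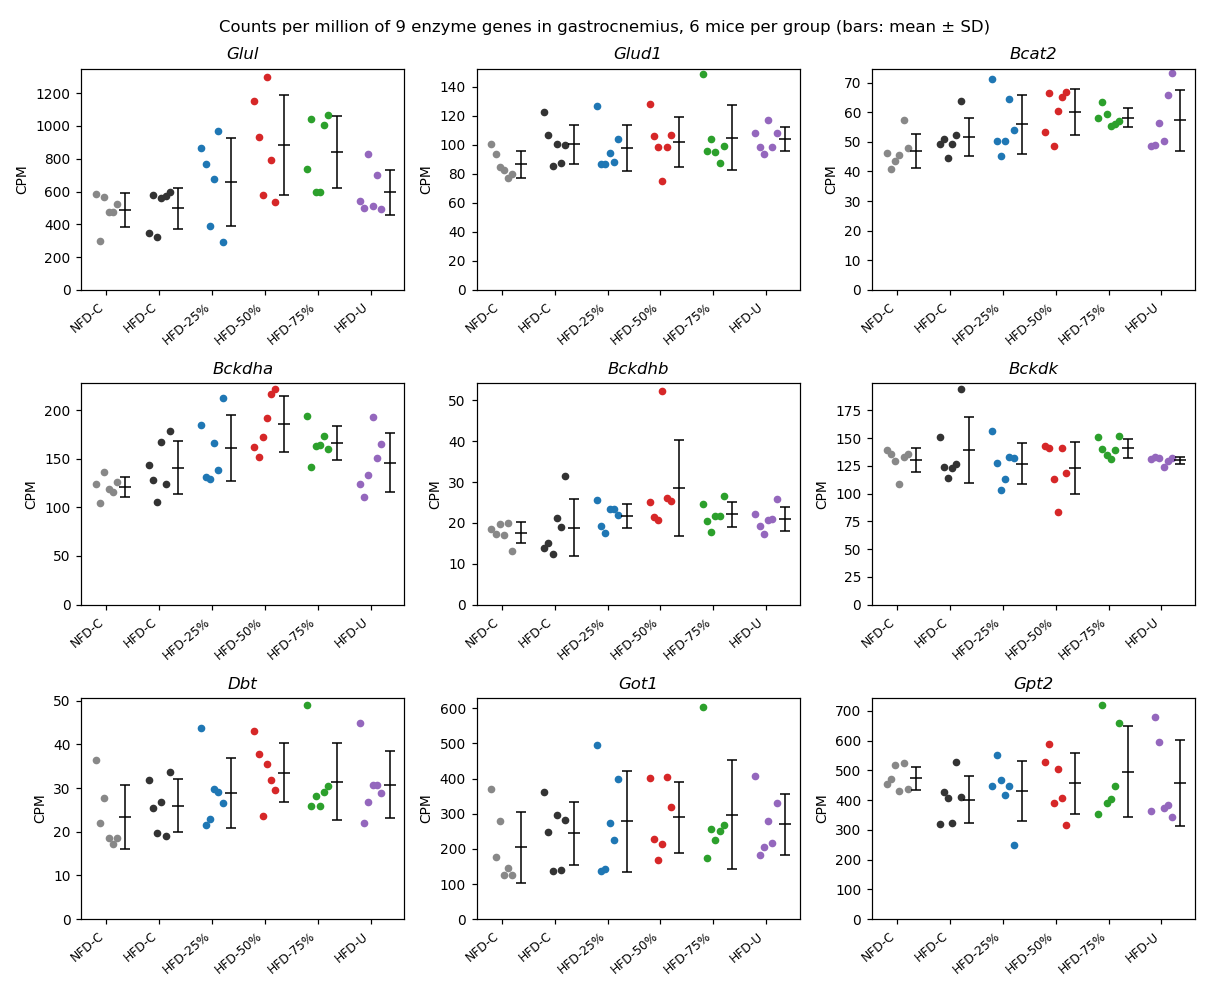
CPM of the 9 members in every mouse (points, left to right mice 1 to 6) with the mean and SD of each group (bars), on axes that start at 0. Glul reached 1299 CPM in HFD-50% and lay at or above 597 CPM in every HFD-75% mouse, while the groups of Bckdk, Glud1 and Gpt2 overlapped throughout.

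The gene of glutamine synthesis had the largest log2 fold change of the members against HFD-C in each running group. Glul (gene ID 14645, chr1:153775675-153785469 on the plus strand of GRCm39) encodes glutamine synthetase. In sedentary mice it ranged from 298 to 583 CPM in NFD-C (median 499) and from 322 to 596 CPM in HFD-C (median 567). The HFD-C mice fell apart into 349 and 322 CPM in mice 1 and 3 and 563 to 596 CPM in the other 4. Glul ranged from 291 to 970.1 CPM in HFD-25% (median 721), from 539 to 1299 in HFD-50% (median 864), from 597 to 1067 in HFD-75% (median 871) and, at the longest distance, from 496 to 828 in HFD-U (median 528). Every HFD-75% mouse was above every HFD-C mouse, though the gap was from 596 to 597 CPM, and 4 HFD-50% mice, 4 HFD-25% mice and 2 HFD-U mice were above all of HFD-C.

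Against HFD-C, Glul rose 1.78-fold in HFD-50% (log2 fold change 0.83 ± 0.24, standard error, unadjusted p = 0.00325 by edgeR's quasi-likelihood test, adjusted p = 0.213). In HFD-75% it rose 1.70-fold (log2 0.76 ± 0.20, unadjusted p = 0.0019, adjusted p = 0.397 in edgeR). It did not pass an unadjusted p of 0.05 in HFD-25% (log2 0.41 ± 0.27) or HFD-U (0.27 ± 0.19), and the diet contrast was near 0 (0.02 ± 0.19, HFD-C against NFD-C). All the running groups were compared with the same 6 HFD-C mice. Within the runners, where no HFD-C mouse enters, Glul was 1.48-fold higher in HFD-50% than in HFD-U (log2 0.57 ± 0.22, unadjusted p = 0.0213, adjusted p = 0.336 in edgeR), and a test of any trend, straight or curved, over the 4 distances gave an unadjusted p of 0.0484 (edgeR adjusted p = 0.587). The order of the group means ran NFD-C (487 ± 103 CPM, SD), HFD-C (497 ± 126), HFD-U (596 ± 137), HFD-25% (660.1 ± 268), HFD-75% (841 ± 222) and HFD-50% (883 ± 305), and each gap between neighbours was smaller than the SD of either.

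Leaving out any 1 mouse left Glul past the limit in HFD-50% and in HFD-75%, with log2 fold changes of 0.68 to 0.94 and 0.67 to 0.85. With only the libraries of low rRNA-linked share, which leaves 2 HFD-C mice, the values were 0.61 ± 0.35 in HFD-50% (edgeR unadjusted p = 0.106) and 0.53 ± 0.26 in HFD-75% (unadjusted p = 0.0666 in edgeR). With the share as a covariate, the values were 0.66 ± 0.31 in HFD-50% (edgeR unadjusted p = 0.05 as rounded, just above the limit) and 0.53 ± 0.27 in HFD-75% (unadjusted p = 0.067). In such fits HFD-50% against HFD-U gave 0.41 ± 0.26 (edgeR unadjusted p = 0.137), and Glul did not pass in the dose test (unadjusted p = 0.0735) or across the 6 groups (unadjusted p = 0.0736 in edgeR).

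The 250 bases before the start of Glul are shown because it had the largest change of the members. Promoters were taken from the RefSeq table on GRCm38.p6, where 8 of the 9 members had an entry (Dbt had none) with 10 starts in all. Short patterns were looked for on both strands and are printed in capitals: ACANNNTGT (the core of a glucocorticoid receptor site), AAGGTCA (an estrogen-related receptor site), CACGTG (an E-box), CCACCC (a KLF-type box) and GGGCGG (a GC box). Of all 32851 promoters of that length in the table, 5.84, 4.08, 6.02, 28.1 and 32.7% held them. The Glul window lies at chr1:153899679-153899928 on the plus strand and held 1 glucocorticoid-type match, 1 KLF-type box and 1 GC box.

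Glul: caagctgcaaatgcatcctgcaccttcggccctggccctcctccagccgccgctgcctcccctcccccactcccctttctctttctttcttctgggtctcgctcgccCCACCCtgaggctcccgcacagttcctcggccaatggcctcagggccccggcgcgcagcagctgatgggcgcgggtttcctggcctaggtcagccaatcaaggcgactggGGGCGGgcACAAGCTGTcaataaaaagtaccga

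These matches describe letters only, and binding was not measured. The glucocorticoid-type match lay near the downstream end of the window, next to the GC box.

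The branched-chain complex was raised in part, in HFD-50%. Bckdha (gene ID 12039, chr7:25329277-25358209, minus strand) encodes the E1 alpha subunit. It ranged from 105 to 136 CPM in NFD-C (median 121), 106 to 179 in HFD-C (median 136), 129 to 213 in HFD-25% (median 152), 152 to 222 in HFD-50% (median 182), 142 to 194 in HFD-75% (median 163) and 110.4 to 193 in HFD-U (median 142). The upper 3 HFD-50% mice (192, 217 and 222 CPM) were above all HFD-C mice, and the lowest HFD-50% mouse was above 4 of the 6. It was 1.33-fold higher in HFD-50% than in HFD-C (log2 0.41 ± 0.15, edgeR unadjusted p = 0.0187, adjusted p = 0.366) and 1.28-fold higher than in HFD-U (0.35 ± 0.15, unadjusted p = 0.0365, adjusted p = 0.377). Its differences from HFD-C in the other running groups were 0.19 ± 0.16 in HFD-25%, 0.24 ± 0.13 in HFD-75% and 0.05 ± 0.16 for HFD-U on the log2 scale, none past the limit. Over all 6 groups it had the smallest p of the members (unadjusted p = 0.00198, adjusted p = 0.0872 in edgeR). With the rRNA-linked share in the fit that test gave an unadjusted p of 0.0715 in edgeR, and the difference from HFD-U was 0.25 ± 0.18 (unadjusted p = 0.185).

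Bckdhb (gene ID 12040, chr9:83807164-84006293, plus strand) encodes the E1 beta subunit. The HFD-C mice ran from 12.4 to 31.4 CPM (median 17.0) and the HFD-50% mice from 20.8 to 52.2 (median 25.2), against 13.0 to 19.9 in NFD-C, 17.6 to 25.5 in HFD-25%, 17.7 to 26.5 in HFD-75% and 17.2 to 25.9 in HFD-U. One mouse, HFD-50% 4, stood far above its group, and the next highest of that group was at 26.1 CPM. The fold was 1.53 in HFD-50% against HFD-C (log2 0.61 ± 0.26, edgeR unadjusted p = 0.0316, adjusted p = 0.416). Without that mouse it was 0.34 on the log2 scale with an unadjusted p of 0.118 in edgeR (adjusted p = 0.642), and it passed in 8 of the 12 fits that each left out 1 mouse. Against HFD-U the log2 fold change was 0.45 ± 0.21 (unadjusted p = 0.0482, adjusted p = 0.397 in edgeR), and without the same mouse it was 0.17 (unadjusted p = 0.158). Low-share libraries alone gave 0.19 ± 0.35 in HFD-50% against HFD-C (edgeR unadjusted p = 0.592). With the share as a covariate the log2 difference from HFD-U was near 0 (standard error 0.19, unadjusted p = 0.982), and the test across the 6 groups gave an unadjusted p of 0.126 in edgeR. HFD-50% mouse 4 also had the highest rRNA-linked share of all running mice, 1.02%. Against HFD-U, the covariate fit and the fit without that mouse are therefore not separate checks.

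Dbt (gene ID 13171, chr3:116306719-116343630, plus strand) encodes the E2 core. It ranged from 19.0 to 33.6 CPM in HFD-C (median 26.1) and from 23.5 to 43.0 in HFD-50% (median 33.8), where 3 mice were above all of HFD-C. The fold was 1.29 (log2 0.37 ± 0.17, edgeR unadjusted p = 0.0448, adjusted p = 0.455), just inside the limit, and it passed in 4 of the 12 fits that each left out 1 mouse. Its medians in NFD-C, HFD-25%, HFD-75% and HFD-U were 20.3, 27.8, 28.7 and 29.8 CPM, with no call against HFD-C.

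The windows before the starts of Bckdha and Bckdhb, which passed the unadjusted limit with Glul in HFD-50% against HFD-C, are shown to be set beside that of Glul. For Bckdha (chr7:25658762-25659011, minus strand, GRCm38.p6) none of these patterns was present in these letters. Of the 2 Bckdhb starts in the table, the upstream one is printed (chr9:83924887-83925136, plus strand), with 1 KLF-type box and 3 GC boxes, and the other start held 1 glucocorticoid-type match and no other pattern.

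Bckdha: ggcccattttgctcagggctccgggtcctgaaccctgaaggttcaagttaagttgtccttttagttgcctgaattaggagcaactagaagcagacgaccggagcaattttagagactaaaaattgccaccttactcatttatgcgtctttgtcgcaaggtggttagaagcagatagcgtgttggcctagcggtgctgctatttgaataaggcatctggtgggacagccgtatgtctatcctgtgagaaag

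Bckdhb: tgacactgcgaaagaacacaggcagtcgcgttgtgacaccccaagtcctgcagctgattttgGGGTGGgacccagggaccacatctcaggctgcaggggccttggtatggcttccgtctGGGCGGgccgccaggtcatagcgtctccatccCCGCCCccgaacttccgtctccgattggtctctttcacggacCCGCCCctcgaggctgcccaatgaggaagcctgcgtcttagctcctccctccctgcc

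The Bckdha window was 47.6% G and C, the Bckdhb window 63.2% and the Glul window 64.8%. Glul and Bckdhb thus shared the KLF-type and GC boxes, which are frequent in promoters, and Bckdha shared neither.

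The mRNA of the kinase that turns the complex off did not rise with those of the subunits. Bckdk (gene ID 12041, chr7:127503245-127508836, plus strand) encodes the kinase. Its range was 114 to 194 CPM in HFD-C (median 126) and 83.2 to 143 in HFD-50% (median 129.9), with a log2 fold change of -0.17 ± 0.16 (edgeR unadjusted p = 0.313). The lowest value of all 36 mice, 83.2 CPM, was in HFD-50% mouse 4, the mouse with the highest Bckdhb. In the other contrasts with HFD-C its log2 fold change was -0.12 ± 0.14 (HFD-25%), 0.03 ± 0.12 (HFD-75%) and -0.09 ± 0.12 (HFD-U). HFD-U mice were close together, at 124 to 133 CPM.

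The ratio of Bckdk to Bckdha within a mouse, on FPKM, is given as a description with no test. Its mean on the log2 scale was -0.28 ± 0.18 in NFD-C (SD, n = 6), -0.42 ± 0.21 in HFD-C, -0.71 ± 0.27 in HFD-25% and -1.0 ± 0.42 in HFD-50%. It was -0.62 ± 0.15 at HFD-75% and -0.53 ± 0.32 at HFD-U. In linear terms the geometric mean of this FPKM ratio was 0.823 in NFD-C, 0.75 in HFD-C and 0.502 in HFD-50%. These values depend on the deposited gene lengths and are not numbers of transcripts. The 4 HFD-50% mice with the lowest ratios, mice 3 to 6 at -1.0 to -1.60, were below every HFD-C mouse, whereas mice 1 and 2 were at -0.57 and -0.50, within the HFD-C range of -0.83 to -0.27. The ratio of the E1 subunits, Bckdha over Bckdhb, varied less between groups, with geometric means of 5.54 to 6.31.

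**Figure D2:**
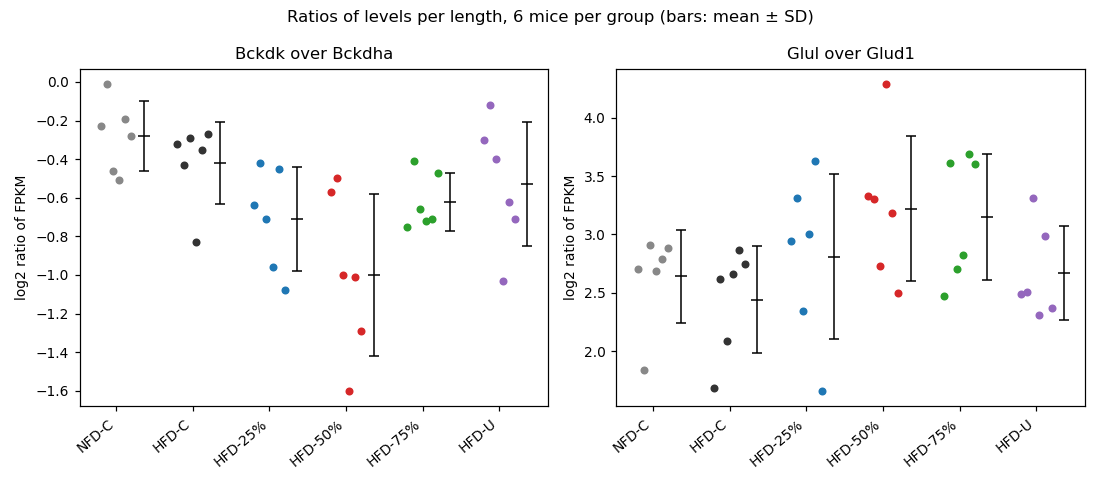
log2 ratio of FPKM within each mouse for Bckdk over Bckdha (left) and Glul over Glud1 (right), with 6 mice per group as points and mean ± SD as bars. The kinase ratio was lowest in HFD-50% (mean -1.0) and the Glul over Glud1 ratio was highest there (mean 3.22), with overlap between the groups in both panels.

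The aminotransferases and glutamate dehydrogenase passed no test between 2 groups in the fits that kept all mice and had no covariate or block. With 1 mouse left out, Bcat2 passed against HFD-C in 2 of 12 fits for HFD-50% and in 1 of 12 for HFD-75%. For HFD-C against NFD-C, Glud1 passed in 3 of 12 such fits and Gpt2 in 1. With the mouse number as a block, Bcat2 passed in HFD-50% against HFD-C (log2 0.22 ± 0.09, edgeR unadjusted p = 0.0362, adjusted p = 0.321), and in HFD-C against NFD-C so did Glud1 (0.20 ± 0.07, unadjusted p = 0.0204) and Gpt2 (-0.26 ± 0.09, unadjusted p = 0.0196, adjusted p = 0.688 for both). Bcat2 (gene ID 12036, chr7:45218391-45239134, plus strand), the first enzyme of branched-chain amino acid use, was between 40.8 and 57.5 CPM in NFD-C and between 44.7 and 63.8 in HFD-C. It was 48.6 to 66.8 CPM in HFD-50% and 55.2 to 63.6 in HFD-75%, the narrowest of the groups. Its log2 fold change against HFD-C was 0.22 ± 0.12 in HFD-50% (edgeR unadjusted p = 0.0868) and 0.18 ± 0.10 in HFD-75% (unadjusted p = 0.0818). In the fits with all mice and no covariate or block it passed only across the 6 groups (unadjusted p = 0.0401, adjusted p = 0.37 in edgeR). That test gave an unadjusted p of 0.898 with the rRNA-linked share in the fit. NFD-C had its lowest mean (46.9 ± 5.73 CPM, SD) and HFD-50% its highest (60.1 ± 7.65).

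Glud1 (gene ID 14661, chr14:34032684-34066990, plus strand), which releases ammonia from glutamate, had group means of 86.6 ± 9.03 CPM in NFD-C and 98.0 to 105 in the other 5 groups. Against HFD-C no running group differed by more than 0.07 on the log2 scale, and with the rRNA-linked share in the fit the differences were 0.11 ± 0.16 in HFD-25%, 0.13 ± 0.17 at HFD-50%, 0.20 ± 0.18 at HFD-75% and 0.20 ± 0.13 for HFD-U, none past the limit. HFD-C was 0.21 ± 0.11 above NFD-C (edgeR unadjusted p = 0.0752; 0.29 ± 0.10 with the covariate, unadjusted p = 0.0132), and 4 of the 6 NFD-C mice were below all of HFD-C. The ratio of Glul to Glud1 went from a log2 mean of 2.44 ± 0.46 in HFD-C to 3.22 ± 0.62 in HFD-50% and 3.15 ± 0.54 in HFD-75%.

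Gpt2 (gene ID 108682, chr8:86219090-86255531, plus strand), the mitochondrial alanine aminotransferase, was 430.3 to 525 CPM in NFD-C and 319 to 529 in HFD-C, a log2 difference of -0.24 ± 0.13 (edgeR unadjusted p = 0.0881), and with the covariate it was -0.35 ± 0.14 (unadjusted p = 0.0213 in edgeR). In the running groups it spread more widely, with its highest mice at 720.5 CPM (HFD-75%) and 679.6 CPM (HFD-U), and the log2 differences from HFD-C were 0.10 to 0.31. Got1 (gene ID 14718, chr19:43488191-43514743, minus strand), the cytosolic aspartate aminotransferase of the malate-aspartate shuttle, ranged from 137 to 360.5 CPM in HFD-C and from 175 to 605 in HFD-75%. Its log2 fold changes against HFD-C were 0.15 to 0.29, with standard errors of 0.25 to 0.32, the largest of the members in each running group. Without mouse 1 of the running group these were -0.05 in HFD-25%, 0.14 at HFD-50%, -0.05 at HFD-75% and near 0 for HFD-U (unadjusted p = 0.999 in edgeR). Mouse 1 was the highest in HFD-C too, at 360.5 CPM. With mice numbered 2 to 6 only, in both groups, the values were 0.09 ± 0.31 in HFD-25%, 0.28 ± 0.27 at HFD-50%, 0.09 ± 0.21 at HFD-75% and 0.14 ± 0.23 for HFD-U.

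**Figure D3:**
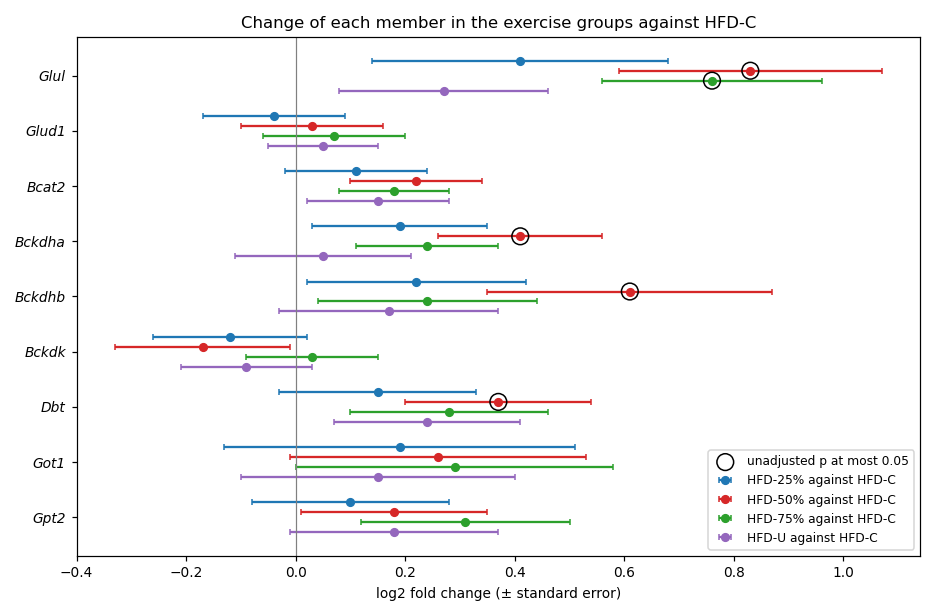
log2 fold change of each member in the 4 running groups against the same HFD-C mice, with the standard error as the bar and a ring around those with an unadjusted p of at most 0.05. Glul, Bckdha, Bckdhb and Dbt are ringed in HFD-50%, Glul is ringed in HFD-75%, and nothing is ringed in HFD-25% or HFD-U.

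Counted over the members, 4 of 9 passed the unadjusted limit in HFD-50% against HFD-C, all higher, where 10.7% of the 12116 genes tested passed. The members' median log2 fold change was 0.26 beside 0.01 over all genes, a median that stayed between -0.01 and 0.02 in every contrast. The count was 2 without HFD-C mouse 2, HFD-C mouse 3 or HFD-50% mouse 4, and it was 0 with the low-share libraries alone and 0 with that share as a covariate. In the latter fit the log2 fold change of Glul was 0.66 ± 0.31, just outside the limit (edgeR unadjusted p = 0.05 as rounded). The others were 0.33 ± 0.20 for Bckdha, 0.33 ± 0.31 for Bckdhb and 0.41 ± 0.23 for Dbt (edgeR unadjusted p = 0.129, 0.3 and 0.0896).

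In HFD-75% 1 of 9 members passed (5.47% of all genes), with 9 of 9 log2 fold changes above 0 and a median of 0.24. Bckdhb and Bckdk were at -0.17 and -0.09 there with the share as a covariate, and both at -0.18 with the low-share libraries alone. The count was 2 without HFD-C mouse 4 and 4 without HFD-C mouse 6, and it was 0 with the low-share libraries alone or with the covariate. In HFD-25% and in HFD-U 0 of 9 passed (6.98 and 5.46% of all genes), with medians of 0.15 in both and the lowest unadjusted p at 0.147 and 0.172 in edgeR. Each of these counts was 1 without HFD-C mouse 6, and that of HFD-25% was 1 without HFD-25% mouse 6. For the diet contrast, HFD-C against NFD-C, 0 of 9 passed (4.12% of all genes) with the lowest unadjusted p at 0.0752 in edgeR. That count was 1 without NFD-C mouse 1 and 2 without HFD-C mouse 3 or mouse 5, and it was 2 with the covariate (Glud1 and Gpt2).

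Between HFD-50% and HFD-U 3 of 9 passed, all higher in HFD-50%, beside 12.4% of all genes. The count was 1 without any one of 7 mice (HFD-50% 4, 5 or 6, HFD-U 1, 2, 3 or 5) and 0 among mice numbered 2 to 6 or with the share as a covariate. The dose test over the 24 running mice gave 1 of 9 (8.49% of all genes), namely Glul. That count was 0 with the covariate and without any one of 12 mice, and Glul passed in 11 of the 24 fits that each left out 1 mouse. Across the 6 groups 4 of 9 passed (12.2% of all genes), namely Glul, Bcat2, Bckdha and Bckdhb, and 0 with the covariate.

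After adjustment over all genes by the Benjamini-Hochberg method, 0 of 9 members passed at 0.05 in any edgeR comparison with all mice and no covariate or block. The same limit was passed by 0.0082% of all genes in HFD-25%, by 0% in HFD-50%, HFD-75%, HFD-U and the diet contrast, by 0.00844% between HFD-50% and HFD-U, by 0.0419% in the dose test and by 1.45% across the 6 groups. DESeq2 on the same genes gave an adjusted p of 0.0395 for Glul in HFD-50% against HFD-C, 0.0532 for Glul in HFD-75% against HFD-C, and 0.0153 for Glul and 0.0149 for Bckdha across the 6 groups. With the mouse number as a block, the edgeR adjusted p of Bckdha across the 6 groups was 0.00742. Of the 45 steps between neighbouring group means over the 9 members, 41 were smaller than the SD of either group. The 4 larger steps were from NFD-C to HFD-25% in Glud1, NFD-C to HFD-C in Bckdha, and HFD-75% to HFD-50% in Bckdha and in Bckdhb.

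Fibre type and fat moved with some of these results. The summed level of 8 slow-fibre markers ran from 709 to 4086 CPM in HFD-50% (median 1717), from 163 to 2437 in HFD-C (median 1320.4) and from 163 to 1971 in HFD-U (median 815), and all 8 were detected. In NFD-C, where Bckdha had its lowest mean, the sum was 38.5 to 2064 CPM (median 145). The 7 adipocyte markers, all detected, summed to 149 to 455 CPM in HFD-50%, 160.3 to 382 in HFD-C and 122 to 428 in HFD-U. Over the 36 mice with group means taken off, Bckdha rose with the slow-fibre sum (Pearson r = 0.65, Spearman rho = 0.65, permutation p = 3e-05 and 0.0001, adjusted p = 0.000472 and 0.00157 over 63 relations). It also rose with the adipocyte sum (r = 0.63, rho = 0.63, permutation p = 0.00022 and 0.00018, adjusted p = 0.00173 and 0.00189). Without the 2 mice farthest from the median of the marker sum in question these r were 0.77 and 0.60. The part of either in the Bckdha difference between groups was not tested.

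Gpt2 had the opposite pattern to Bckdha. It rose with the sum of 7 fast 2B fibre markers (r = 0.79, rho = 0.76, permutation p = 1e-05 for both, the smallest 100000 permutations can give, adjusted p = 0.00021) and fell with slow fibres (r = -0.55, rho = -0.56, permutation p = 0.00026 and 0.0005, adjusted p = 0.00182 and 0.00315). Without the 2 mice farthest out in the marker sum in question these r were 0.72 and -0.65. Gpt2 and Bckdha were themselves related inversely (r = -0.65, rho = -0.61, permutation p = 0.00014 and 0.00031, adjusted p = 0.00147 and 0.00279). Their r was -0.58 without the 2 mice farthest out in Bckdha and -0.70 among the 26 low-share libraries. Glul went with Gpt2 (r = 0.57, rho = 0.59, permutation p = 0.00094 and 0.0005, adjusted p = 0.00456 and 0.00315) and not with Bckdha (r = -0.07, rho = -0.05, permutation p = 0.724 and 0.814, adjusted p = 0.814 and 0.884).

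**Figure D4:**
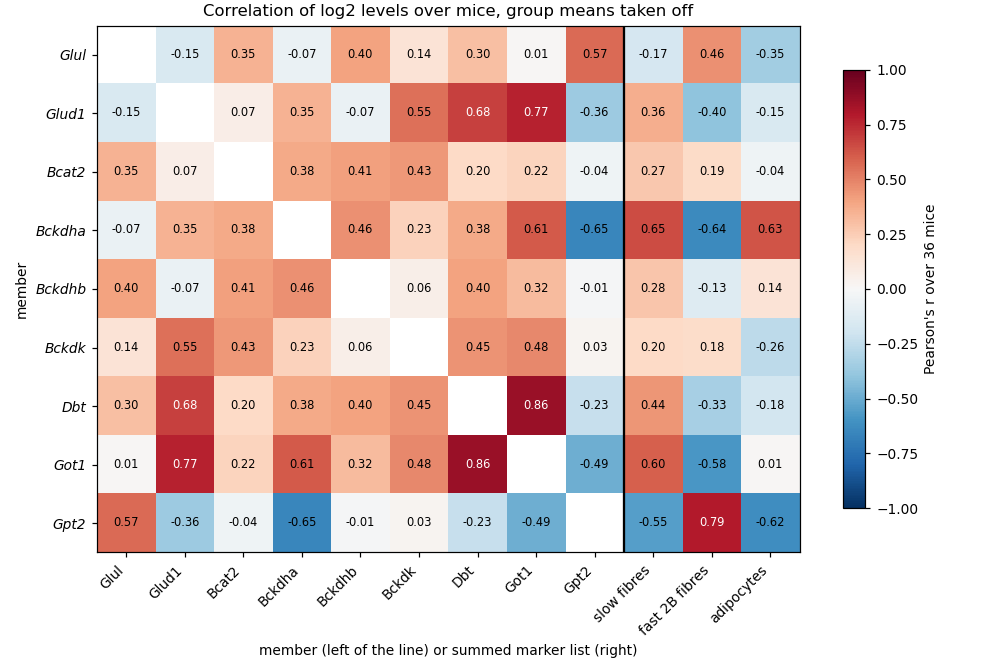
Pearson's r over 36 mice between the log2 levels of each pair of members, and of each member with the summed markers of slow fibres, fast 2B fibres and adipocytes, after the mean of each group was taken off (colour from -1 to 1). Dbt with Got1 (0.86) and Gpt2 with fast 2B fibres (0.79) were the highest values, and Bckdha with Gpt2 (-0.65) was the lowest.

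Got1, Dbt and Glud1 varied together. The pair Dbt and Got1 had r = 0.86 (rho = 0.80, permutation p = 1e-05 for both, adjusted p = 0.00021), Glud1 and Got1 r = 0.77 (rho = 0.80, permutation p = 1e-05 for both, adjusted p = 0.00021), and Glud1 and Dbt r = 0.68 (rho = 0.64, permutation p = 9e-05 and 0.00016, adjusted p = 0.00113 and 0.00189). The mice numbered 1 were the highest of their group in 5 of 6 groups for each of the 3 genes. Got1 was 360.5 to 605 CPM in these 6 mice and 126 to 405 in the other 30, Dbt 31.8 to 49.0 and 17.3 to 37.8, and Glud1 101 to 149 and 74.9 to 117. The labels do not say what a mouse number stands for. Among the 30 mice numbered 2 to 6, r was 0.71 for Dbt and Got1, 0.57 for Glud1 and Got1, and 0.31 for Glud1 and Dbt. Got1 rose with the slow-fibre sum (r = 0.60, permutation p = 0.0006, adjusted p = 0.00315). It fell with the fast 2B sum (r = -0.58, permutation p = 0.00112, adjusted p = 0.00504). For Dbt and Glud1 the adjusted p of Pearson's r with either sum was above 0.05. The slow-fibre sum had a median of 1330.2 CPM in the mice numbered 1 and 688 in the others, and the adipocyte sum 155 and 241. The part of fibre type or fat in these relations was not tested.

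**Figure D5:**
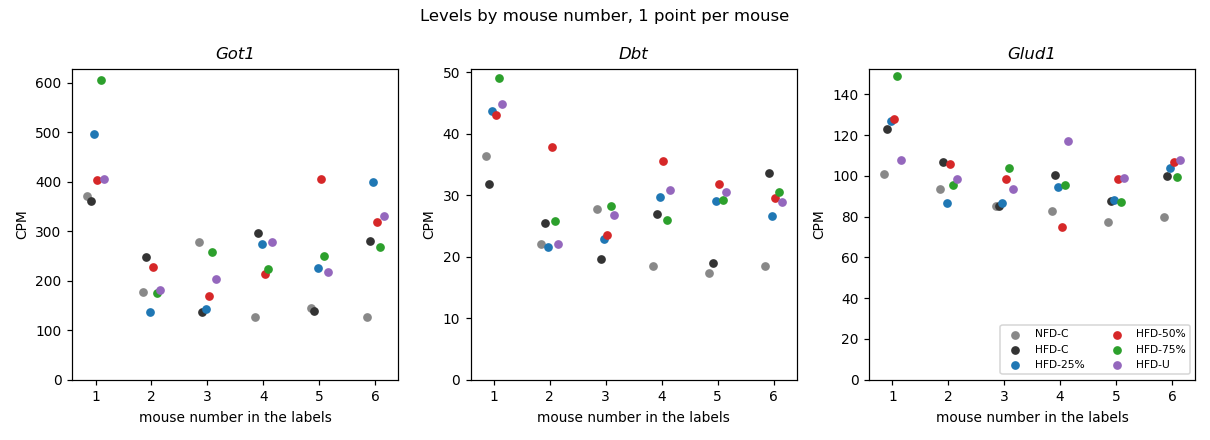
CPM of Got1, Dbt and Glud1 against the mouse number given in the labels, with 1 point per mouse, coloured by group. The mice numbered 1 lie at the top in 5 of the 6 groups for each gene, at 360.5 to 605 CPM for Got1.

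Of the 36 member pairs, 13 had an adjusted p of at most 0.05 for Pearson's r, 11 positive and 2 negative. The E1 subunits went together (Bckdha with Bckdhb, r = 0.46, rho = 0.48, permutation p = 0.00899 and 0.00533, adjusted p = 0.0298 and 0.021), with r = 0.52 without the farthest 2 mice. Bckdk did not follow E1 alpha (r = 0.23, rho = 0.12, permutation p = 0.239 and 0.529, adjusted p = 0.358 and 0.644). It went with Glud1 (r = 0.55, rho = 0.46, permutation p = 0.00235 and 0.0115, adjusted p = 0.00987 and 0.0346), with Got1 (r = 0.48, rho = 0.50, permutation p = 0.00439 and 0.00697, adjusted p = 0.0163 and 0.0244) and with the E2 gene Dbt (r = 0.45, rho = 0.43, permutation p = 0.00707 and 0.017, adjusted p = 0.0247 and 0.0446). With Bcat2 the r was 0.43 and the rho 0.39 (permutation p = 0.014 and 0.0239, adjusted p = 0.0433 and 0.0558). Without the 2 mice farthest out these r were 0.52, 0.53, 0.53 and 0.39, in the same order. Among the 30 mice numbered 2 to 6 they were 0.45, 0.36, 0.32 and 0.47.

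Among the 12053 genes tested across the groups, those most like each member over the 36 mice, group means taken off, are given as a description. Got1 was matched most closely by Etfa (r = 0.97), an electron transfer flavoprotein subunit, by Tmem65 (0.96) and by Got2 (0.96), the mitochondrial partner of Got1 in the malate-aspartate shuttle. The genes most like Bckdha were Etfb (0.92), the other electron transfer flavoprotein subunit, Ech1 (0.90) and Mrpl14 (0.89), and those most like Dbt included Alpk2 (0.92) and Acad11 (0.90). Glul was nearest to Oat (0.81), ornithine aminotransferase, followed by Ucp3 (0.77). For Bckdhb they were Gcdh (0.81), glutaryl-CoA dehydrogenase of lysine breakdown, with Map1lc3a and Phb2 (both 0.78). Glud1 was most like Chpt1 (0.92), Dlat (0.89) and Slc41a1 (0.89), Bckdk like Emc10 (0.86), Abcb8 (0.81) and Nfs1 (0.81), Gpt2 like Ccnk (0.86), Stt3b (0.85) and Slc2a3 (0.85), and Bcat2, with the loosest matches, like Yif1a (0.74), Pink1 (0.70) and Phb2 (0.69).

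The window before the start of Got1 (chr19:43524606-43524855, minus strand, GRCm38.p6) is shown because it was the only 1 of the 10 member windows with the estrogen-related receptor pattern. It also held 1 KLF-type box.

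Got1: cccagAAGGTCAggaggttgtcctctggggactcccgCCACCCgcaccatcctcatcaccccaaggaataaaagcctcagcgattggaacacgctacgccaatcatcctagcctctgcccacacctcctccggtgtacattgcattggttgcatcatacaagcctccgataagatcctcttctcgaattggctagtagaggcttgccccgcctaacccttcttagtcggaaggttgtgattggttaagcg

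Further along the pathway, the 21 tested genes of branched-chain amino acid breakdown other than the members had 0 calls against HFD-C in each of the 4 running groups. Their median log2 fold change was 0.16 in HFD-50%, 0.12 in HFD-75%, 0.10 in HFD-U and 0.07 in HFD-25%. With the share as a covariate 2 were higher in HFD-U and 1 was lower in each of HFD-25% and HFD-75%. In those fits 13.4% of all genes were called in HFD-25%, 11.1% for HFD-50%, 10.6% for HFD-75% and 14.5% for HFD-U, and 5.31% for HFD-50% against HFD-U, shares that hold for the covariate counts of the lists that follow too. In the diet contrast 1 of 21 was higher, Mccc2 of leucine breakdown (log2 0.32 ± 0.13, edgeR unadjusted p = 0.0279, adjusted p = 1), beside 4.12% of all genes. Across the groups Mccc2 and Acad8 passed the unadjusted limit (edgeR unadjusted p = 0.0182 and 0.0482), beside 12.2% of all genes. Echs1 came next (edgeR unadjusted p = 0.0537). With the covariate 3 of 21 were higher in the diet contrast (8.37% of all genes), and Mccc2 was not among them (edgeR unadjusted p = 0.059). Across the groups 0 of 21 passed with the covariate (12.7% of all genes).

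Of the genes that use or carry glutamine and glutamate, 24 of 25 were found and 21 were tested against HFD-C. The counts of higher and lower genes were 2 and 3 at HFD-50%, 0 and 2 at HFD-75% and 2 and 2 at HFD-U, and in HFD-25% none passed (median log2 fold changes 0.02 to 0.07), where 10.7, 5.47, 5.46 and 6.98% of all genes were called. In HFD-50% set against HFD-U, 4 of 20 were higher and 3 lower, beside 12.4% of all genes. With the rRNA-linked share in the fit the counts were 1 and 2 at HFD-50%, 0 and 1 at HFD-75% and 0 at HFD-U and HFD-25%, and 0 higher and 1 lower between HFD-50% and HFD-U. Ppat, the glutamine-using first enzyme of purine synthesis, went the other way from Glul. It was 33.6 ± 6.88 CPM in HFD-C (SD), 21.3 ± 4.24 in HFD-50% (log2 -0.65 ± 0.16, edgeR unadjusted p = 0.000773, adjusted p = 0.139), 24.4 ± 2.67 in HFD-75% (-0.46 ± 0.13, unadjusted p = 0.00324, adjusted p = 0.482) and 35.3 ± 5.66 in HFD-U (0.07 ± 0.14), and it passed after adjustment across the 6 groups (edgeR adjusted p = 0.0333). With the covariate its log2 values were -0.69 ± 0.20 in HFD-50% (unadjusted p = 0.00352) and -0.49 ± 0.17 in HFD-75% (unadjusted p = 0.0129), and the adjusted p across the groups was 0.106 in edgeR. Aldh18a1, the enzyme that takes glutamate into proline synthesis, was lower in HFD-50% (log2 -0.75 ± 0.26, edgeR unadjusted p = 0.0113, adjusted p = 0.318). Ctps2, a CTP synthase that uses glutamine, was higher there (1.0 ± 0.41, unadjusted p = 0.027, adjusted p = 0.401 in edgeR), with 1 mouse at 29.3 CPM and a group minimum of 5.17.

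Of 18 other genes of transamination and the malate-aspartate shuttle, 12 were tested in HFD-25%, HFD-50% and HFD-75% and 11 in HFD-U, and 2, 2, 1 and 1 were higher than in HFD-C, with 0 lower (6.98, 10.7, 5.47 and 5.46% of all genes passed in these contrasts). With the share as a covariate these counts were 2, 3, 2 and 2, with 0 lower. Slc25a22, a mitochondrial glutamate carrier, rose from 21.7 ± 10.4 CPM in HFD-C to 47.4 ± 20.2 in HFD-50% (log2 1.14 ± 0.32, edgeR unadjusted p = 0.00291, adjusted p = 0.207), and its adjusted p across the groups was 0.0418. With the covariate these were 1.04 ± 0.46 (edgeR unadjusted p = 0.0413) and an adjusted p of 0.357. Gpt, the cytosolic counterpart of Gpt2, was higher in HFD-C than in NFD-C (log2 0.50 ± 0.17, edgeR unadjusted p = 0.0103, adjusted p = 1), where Gpt2 had a difference of -0.24. Kyat3 was higher in HFD-50% (0.71 ± 0.28, edgeR unadjusted p = 0.024) and in HFD-U (0.65 ± 0.26, unadjusted p = 0.0218), with adjusted p of 0.391 and 0.839.

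Of 17 genes known to respond to glucocorticoids or KLF15, 10 were higher and 1 lower in HFD-50% than in HFD-C (median log2 fold change 0.68), 7 higher and 1 lower in HFD-75% (median 0.31), 2 higher in HFD-25% (median -0.04) and none in HFD-U (median -0.01), where 10.7, 5.47, 6.98 and 5.46% of all genes passed. With the share as a covariate 8 were higher and 1 lower in HFD-50%. The same counts were 7 and 1 for HFD-75%, 3 and 3 for HFD-25%, and 1 and 1 for HFD-U. Fkbp5, a glucocorticoid-induced co-chaperone, was 71.2 ± 40.4 CPM in HFD-C (SD), 205 ± 70.2 in HFD-50% (log2 1.52 ± 0.36, edgeR unadjusted p = 0.000664, adjusted p = 0.134) and 181 ± 58.5 in HFD-75% (1.35 ± 0.35, unadjusted p = 0.00162, adjusted p = 0.397). Across the 6 groups its adjusted p was 0.0225 in edgeR. With the covariate it was at 1.23 ± 0.51 in HFD-50% (edgeR unadjusted p = 0.03) and 1.02 ± 0.52 in HFD-75% (unadjusted p = 0.0711), with an adjusted p of 0.287 across the groups. In HFD-25% Fkbp5 was also higher (1.26 ± 0.38, edgeR unadjusted p = 0.00427, adjusted p = 0.427), and there Glul was at 0.41 ± 0.27. With the covariate Fkbp5 did not pass in HFD-25% (0.95 ± 0.57, edgeR unadjusted p = 0.116), and Glul was at 0.18 ± 0.37 (unadjusted p = 0.637). The metallothioneins Mt1 and Mt2 were higher in HFD-50% by 2.09 ± 0.80 and 2.02 ± 0.87 on the log2 scale (edgeR unadjusted p = 0.02 and 0.0351, adjusted p = 0.37 and 0.424), with 1 mouse at 654 CPM of Mt1 beside a group minimum of 26.7. Mt1 had an adjusted p of 0.0379 across the groups in edgeR, and of 0.115 with the covariate, where neither passed in HFD-50% (edgeR unadjusted p = 0.0791 for Mt1 and 0.104 for Mt2).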

How the data were processed

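RNA of gastrocnemius muscle from 36 mice was sequenced after poly(A) selection. The authors aligned the reads with HISAT2 2.0.5 and deposited whole-number counts per gene from featureCounts 1.5.0-p3, not normalized; their processing notes also list StringTie 1.3.3b, DESeq2 1.20.0 and edgeR 3.22.5. The labels name mm10, but the chromosome sequences beside the counts are those of GRCm39, on which gene positions are given; the strand setting of the counting is not given in the sources used here. Features without a name (562) held 0.262% of all counts. They were kept in the totals and, where they reached the minimum mean count, in the library sizes and tests.

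Each comparison was fitted on its own libraries in R 4.3.3 with edgeR 4.0.16 (quasi-likelihood test, two-sided, TMM factors, mean count of at least 25), with Benjamini-Hochberg adjustment over all genes tested. The dose test and the test across the 6 groups used 24 and 36 libraries. The limit of an unadjusted p of 0.05 is the one used in the study. CPM and FPKM were computed here from the counts, FPKM with the deposited gene lengths. Relations between mice were tested with 100000 permutations within groups (Python 3.11.15). The tests were tried on simulated counts first.

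The members and the gene lists were chosen with earlier results of these data known. The text names all members, the 3 genes of each list with the smallest p across the groups (and any whose adjusted p reached 0.05 in a comparison), and the 3 genes most like each member, of which some are not reported here. Alternatives were DESeq2 1.42.0, no minimum count, RLE factors, the rRNA-linked features removed, their share as a covariate, a replicate block, 1 fit over all libraries, libraries of low or high rRNA-linked share (limit 1.5%), mice numbered 2 to 6, and each mouse left out. Mouse numbers 1 to 6 recur in every group, and same-numbered mice deviated together in all 6 pairs (r from 0.121 to 0.501) only for HFD-U and HFD-C. Pairs of replicates differed by 14.7 to 181 times sampling noise (chi-square per degree of freedom). The labels do not say that mice were housed or sampled independently, so p-values measure the spread between these mice.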

Additional observations from a re-analysis of the deposited data

Results flagged for a closer look

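In 54 sets of 6 mice (9 members in 6 groups), 6 values stood apart from their group by Dixon's test, which chance gives in about 1 of 20 sets. Of these 6 values, 4 came from mice numbered 1 (the labels give the number without saying what it stands for). They were Got1 in HFD-75% mouse 1 (605 CPM, next 268), Glud1 in the same mouse (149 CPM, next 104), Dbt in the same mouse (49.0 CPM, next 30.5) and Dbt in HFD-25% mouse 1 (43.7 CPM, next 29.7). The other 2 were Bckdhb in HFD-50% mouse 4 (52.2 CPM, next 26.1), without which Bckdhb did not pass in that group, and Bckdk in NFD-C mouse 4 (109 CPM, next 129), the only one on the low side.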

How the results depend on the processing

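With DESeq2, no minimum count, RLE factors or the rRNA-linked features removed, the counts of members past the limit were those of the report in all 8 comparisons. The rRNA-linked share as a covariate took the count to 0 in HFD-50% and in HFD-75% against HFD-C, in HFD-50% against HFD-U, in the dose test and across the 6 groups, and to 2 (Glud1 and Gpt2) in HFD-C against NFD-C. It also turned the log2 fold change of Bckdhb in HFD-50% against HFD-U to -0.0041. Low-share libraries alone gave 0 for both HFD-50% and HFD-75%, and high-share libraries alone gave 1 (Gpt2) in the diet contrast; the former keeps 2 HFD-C mice. One fit over all libraries gave 3 in HFD-50% against HFD-C, without Dbt. Mice numbered 2 to 6 gave 2 in HFD-50% against HFD-C, 0 against HFD-U and 0 in the dose test. The replicate block gave 2 in the diet contrast (Glud1 and Gpt2) and 2 in the dose test, 5 in HFD-50% against HFD-C (with Bcat2 added), 2 in HFD-50% against HFD-U (Bckdhb at an edgeR unadjusted p of 0.0517) and 6 across the groups, where the adjusted p of Bckdha was 0.00742 (edgeR), and it changed no count in the other 3 comparisons. Leaving out 1 mouse at a time gave counts from 0 to 1 in HFD-25%, 2 to 5 in HFD-50%, 1 to 4 in HFD-75%, 0 to 1 in HFD-U, 0 to 2 in the diet contrast, 1 to 3 in HFD-50% against HFD-U, and 0 to 2 in the dose test; the test across the 6 groups was not refitted without single mice. Of 1125 member values under all alternatives, 997 kept their direction and their side of the limit, 47 lost the limit, 20 gained it, 60 changed sign with no call on either side and 1 called value changed sign. Why these values moved was not tested. The lowest mean members, Dbt and Bckdhb, rest on the fewest counts.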

Other observations

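Of 10 genes of the PGC-1 and estrogen-related receptor group, which drive mitochondrial gene expression, 1 was lower than in HFD-C at HFD-25%, HFD-50% and HFD-75% and 0 at HFD-U. It was Ppargc1b each time (log2 -0.99 ± 0.42, -1.27 ± 0.42 and -1.10 ± 0.44, edgeR unadjusted p = 0.0329, 0.00765 and 0.0246, adjusted p = 0.683, 0.282 and 0.825). Ppargc1b was 13.0 ± 8.84 CPM in HFD-C (SD) with a range of 3.87 to 29.4, and 5.39 ± 2.53 CPM in HFD-50%. Tfam and Nrf1, the next by p across the groups, did not pass there (unadjusted p = 0.162 and 0.23 in edgeR). The list's median log2 fold change against HFD-C was -0.10 to 0.03 in the running groups, and 0.26 to 0.41 with the covariate. Of the 67 rRNA-linked features found, 5 were tested, and 3 (Lars2, LOC118568312 and AY036118) were lower than in HFD-C in every running group at the unadjusted limit. No adjusted p was under 0.05 in those 4 contrasts, but across the 6 groups each of the 3 had an edgeR adjusted p of 1.16e-09.

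The other cell markers are given as levels. The summed CPM over the libraries ran from 115 to 421 for 5 endothelial markers, 2.64 to 7.56 for 5 immune markers, at most 199.7 for 4 Schwann cell markers, 119 to 411 for 5 blood markers and 191 to 539 for 4 fibroblast markers, and every marker was detected.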
